A study of Mus musculus with 8 samples.

Results

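The comparison described here is that of transplanted and cultured cells at 2 weeks, with 2 libraries of each among the 8 of the series. The libraries at 1 week entered the same fit, so the spread behind each p-value was estimated over all 8 libraries. The cells were MICFs, cardiac fibroblasts that had been isolated from the infarcted hearts of C57BL/6 mice. All groups carried lentiviruses for MGT (*Mef2c*, *Gata4* and *Tbx5* on 1 construct), *Myocd*, *Sall4* and eGFP, with the reprogramming factors under doxycycline control. For the *in vivo* samples, the cells were injected into the left ventricle of C57BL/6 mice at the time of infarction. The hosts were given doxycycline and the drugs tacrolimus, methylprednisolone (a glucocorticoid) and mycophenolate mofetil, and eGFP+ cells were sorted after enzymatic digestion of the heart on Day 14. For the *in vitro* samples, the cells were kept in a serum-containing reprogramming medium with doxycycline, the TGF-β receptor inhibitor SB431542 and the JAK inhibitor baricitinib until eGFP+ cells were sorted on Day 14. Surroundings, hosts' drugs, medium inhibitors and digestion therefore changed together, and their effects cannot be told apart in this comparison. Since the source of each replicate (animal or well) is not labelled, the p-values below measure the spread between these libraries only. The question was which pathways and gene classes differed between the groups beyond the sarcomere, collagen and interferon-stimulated genes.

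Fibroblasts in an infarct lay down and crosslink the scar. Stretch, TGF-β released from its latent complex in the matrix, and Wnt and BMP signals with their secreted inhibitors are known to shape that programme, and matrix secretion loads the endoplasmic reticulum, where chaperones fold the proteins. Cultured fibroblasts meet serum, a rigid surface and ambient oxygen, and serum is a known stimulus of division. Cells freed from tissue by warm digestion are also known to switch on immediate early and heat shock genes within a short time.

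At 2 weeks the 4 libraries held 12304242 to 13082265 fragments on genes, and 1 fragment on a gene of 1 kb corresponded to an FPKM (fragments scaled to gene length and library size) of 0.0723 to 0.0905. The deposited FPKM already held a scaling between libraries, and undoing it shifted the median log2 difference of all genes from -0.01 to -0.33. Replicates differed by more than counting error, with a chi-square per gene of 9.93 *in vivo* and 4.50 *in vitro*. Expression was compared on log2(FPKM + 0.1) by limma for the 14711 genes of 54532 that reached an FPKM of 0.5 in 2 or more of the 4 libraries. A gene was called where the adjusted p (Benjamini-Hochberg) was below 0.01 and the log2 fold change exceeded 1 in size. This gave 1424 genes (9.68%) higher in transplanted cells and 1277 (8.68%) lower. These shares are the background for every count of called list members below. When only the 4 libraries at 2 weeks were fitted, 1230 were higher and 1091 lower. With the scaling undone the split was 1048 higher and 2102 lower, so the changes below are read relative to the median of all genes. In 37.8% of the genes tested both *in vivo* libraries lay above both *in vitro* libraries, and in 38.8% both lay below, which is the background for every gene below whose groups do not overlap. At 1 week the same call gave 8.18% of these genes higher and 5.33% lower, and 883 were higher and 599 lower at both weeks. Of the called genes, 121 were sarcomere, collagen or interferon-stimulated genes and were set aside. A further 381 were in one of the 51 other gene lists, cell type markers included, and 2199 were in no list.

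**Figure D1:**
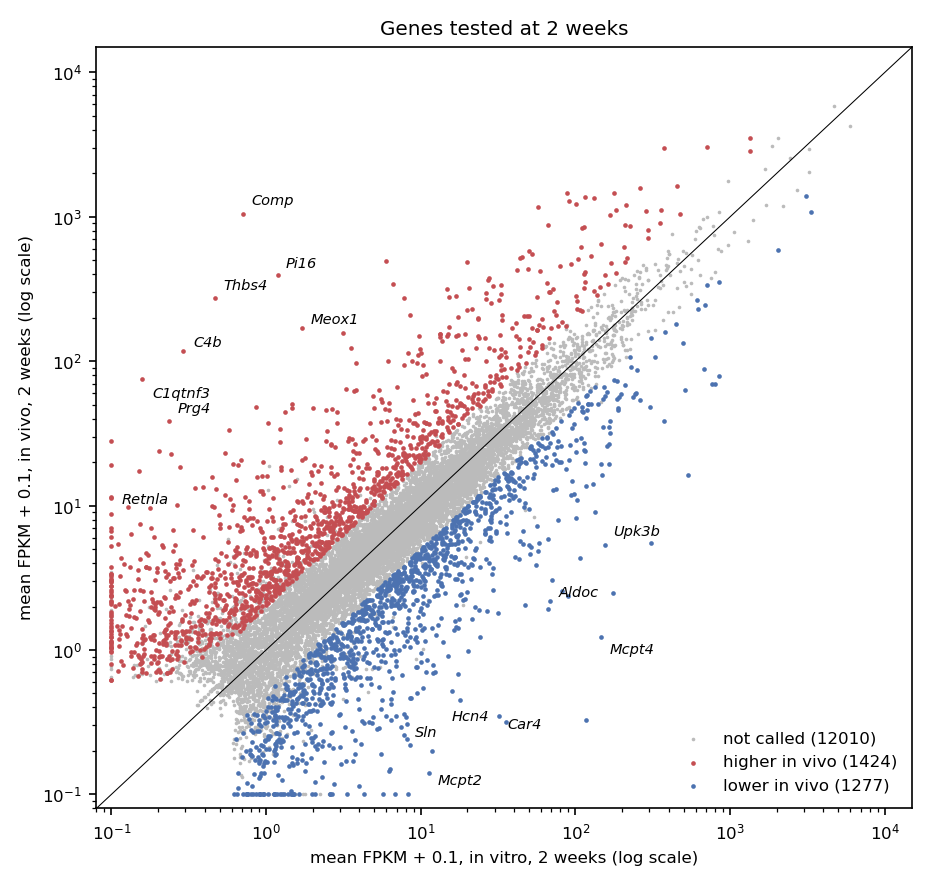
Each point is 1 of the 14711 genes tested, with its mean FPKM plus 0.1 in the 2 *in vitro* libraries on the horizontal axis and in the 2 *in vivo* libraries on the vertical axis, both logarithmic, and the line marks equal values. Red and blue points are the 1424 genes called higher and the 1277 called lower *in vivo*. *Comp*, *Thbs4* and *Pi16* lie far above the line and *Mcpt4* and *Car4* far below it.

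In the values below the *in vivo* pair of libraries stands first and the log2 fold change is given as *in vivo* over *in vitro* with its SE. The largest rises outside the lists set aside were led by *Comp* (chr8:70373558-70382066 on GRCm38), which encodes a matrix protein of tendon and cartilage. *Comp* had an FPKM of 1036 and 1071 in the *in vivo* libraries and 0.658 and 0.570 in the *in vitro* libraries, a log2 fold change of 10.53 ± 0.14 (SE, adjusted p = 4.8e-08). *Thbs4* (chr13:92751590-92794818), a matricellular thrombospondin, had 267 and 282 *in vivo* and 0.440 and 0.291 *in vitro* (9.22 ± 0.18, adjusted p = 2.7e-07). The *in vitro* libraries held 27 and 23 fragments of *Comp* and 20 and 13 of *Thbs4*, so both were detected in culture at low levels. *C4b* (chr17:34728380-34743882), which encodes complement component C4, had an FPKM of 118 and 117 *in vivo* and 0.203 and 0.181 *in vitro* (8.66 ± 0.10). *Pi16* (chr17:29318877-29329413), a marker of progenitor-like fibroblasts of the adventitia, had 389.8 and 406 *in vivo* and 1.05 and 1.13 *in vitro* (8.39 ± 0.08). *Meox1* (chr11:101877510-101894374), a homeobox factor known from activated fibroblasts, had 158 and 180.0 *in vivo* and 1.65 and 1.58 *in vitro* (6.62 ± 0.19). In each of these genes the replicates lay close together and the groups were far apart. *C1qtnf3*, which encodes a secreted C1q-like protein, rose by 8.90 on the log2 scale, and the other large rises included *Prg4* (7.36), *Cilp* (6.39), *Kcnj15* (6.87) and *Tmem100* (6.57).

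Among the largest falls, *Mcpt4* (chr14:56059629-56062313), which encodes a mast cell chymase, had an FPKM of 1.12 and 1.14 *in vivo* and 146 and 146 *in vitro* (-6.89 ± 0.07, adjusted p = 2e-08). *Car4* (chr11:84957786-84966044), a membrane-bound carbonic anhydrase, had 0.406 and 0.0921 *in vivo* and 32.4 and 31.98 *in vitro* (-6.70 ± 0.43). *Hcn4* (chr9:58823412-58863175), the pacemaker channel of the sinus node, had 0.362 and 0.340 *in vivo* and 19.8 and 15.9 *in vitro* (-5.31 ± 0.27). These transcripts were well measured in culture and scarce in transplanted cells. *Aldoc*, an aldolase, fell by 5.13 on the log2 scale, and *Sln*, which encodes the calcium pump inhibitor sarcolipin, by 4.89. The potassium channel gene *Kcnj5* fell by 4.68 and the mesothelial genes *Lrrn4*, *Upk3b* and *Upk1b* by 5.02, 4.86 and 4.62.

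**Figure D2:**
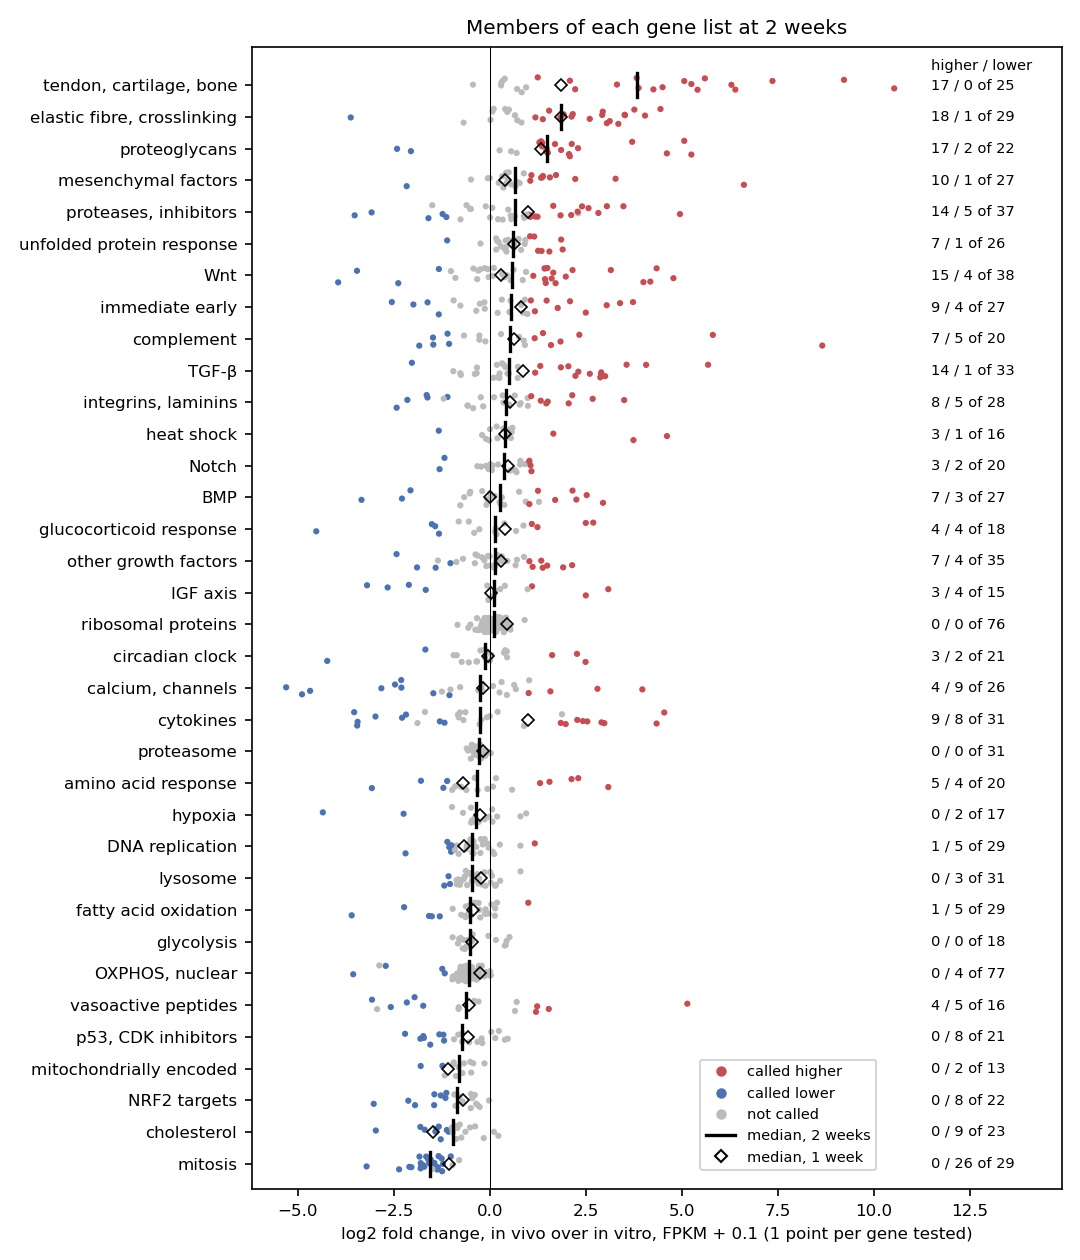
Each point is the log2 fold change of 1 tested gene (*in vivo* over *in vitro*, FPKM plus 0.1) in the gene list named on the vertical axis, coloured by its call, with the median of the list at 2 weeks as a bar and at 1 week as a diamond. The right-hand column gives the members called higher and lower. Among the lists drawn, tendon, cartilage and bone genes have the highest median (3.82) and mitosis genes the lowest (-1.55). Cell type markers and the lists set aside are not drawn. Also left out are the adipogenic, fatty acid synthesis and efflux, metallothionein, skeletal muscle, contractile and cardiac transcription factor lists.

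The delivered factors were measured first. *Sall4* had an FPKM of 4.43 and 4.09 *in vivo* and 17.2 and 10.7 *in vitro* (-1.65 ± 0.21, adjusted p = 0.00066), and *Myocd* had 1.75 and 1.96 against 4.77 and 4.14 (-1.22 ± 0.13, adjusted p = 0.00031). Both were called lower *in vivo*. *Gata4* (37.99 and 37.5 *in vivo*, 73.2 and 64.5 *in vitro*), *Tbx5* (5.59 and 5.85 against 9.88 and 6.95) and *Mef2c* (5.57 and 5.61 against 5.70 and 4.73) were not called, with log2 fold changes of -0.86, -0.53 and 0.11, and the sign of *Mef2c* turned with the scaling undone and without *in vitro* replicate 2. Fragments of a delivered coding sequence and of the cell's own gene cannot be told apart in these values. Of the 15 cardiac transcription factors tested, 0 were higher and 2 (13.3%), *Sall4* and *Myocd*, were lower, against 9.68% and 8.68% of all genes. The lower count became 6 with the scaling undone.

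Cell type markers were checked next. Of 19 fibroblast markers, 14 were higher *in vivo* and 0 lower. The markers included the collagen genes *Col1a1*, *Col1a2* and *Col3a1*. Their summed FPKM over all 19 was 16477 and 15895 *in vivo* and 4688 and 4752 *in vitro*, so fibroblast transcripts were abundant in both groups. Macrophage markers, which cells prepared in this way also hold, summed to 2610.4 and 2164 *in vivo* and 5380.0 and 6604 *in vitro*. Of 16 such markers, 1 (*Cx3cr1*, 1.37, a call lost without *in vivo* replicate 1 or 2 or *in vitro* replicate 1) was higher and 9 were lower, among them *Cd68* (66.3 and 51.6 against 185 and 208, -1.74), *Lyz2* (-1.60), *Tyrobp* (-1.52) and *Fcer1g* (-1.62). The lower count fell to 5 without *in vivo* replicate 2 and to 5 without *in vitro* replicate 2. None of the 16 markers was at 0 in any library at 2 weeks. In such bulk samples, fewer cells of a type and less of its RNA per cell cannot be told apart.

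Mesothelial and epicardial markers were lower *in vivo* as a list. Of 11 tested, 10 were lower and 0 higher, with a median of -3.30 and a summed FPKM of 47.9 and 44.6 *in vivo* and 662 and 678 *in vitro*. *Upk3b*, a uroplakin of the mesothelium, had an FPKM of 5.40 and 5.13 *in vivo* and 152 and 159 *in vitro*, and *Krt18*, a simple epithelial keratin, 2.90 and 2.96 against 69.4 and 70.98. The groups did not overlap for either gene. Endothelial markers moved the other way, with 6 (50%) of 12 higher and 0 lower, against 9.68% and 8.68% of all genes. Their summed FPKM was 122 and 129.7 *in vivo* and 76.3 and 65.1 *in vitro*. *Vwf*, the von Willebrand factor gene, had 2.15 and 1.94 *in vivo* and 0.0720 and 0.137 *in vitro* (3.40), and *Erg*, an endothelial transcription factor, 21.2 and 20.1 against 1.84 and 1.36 (3.62).

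Cardiomyocyte markers summed to 128 and 146 *in vivo* and 1461 and 1253 *in vitro*, with 2 of 14 higher and 11 lower. The lower ones included *Tnni3* (0.816 and 1.45 against 26.5 and 21.9) and *Actc1* (4.11 and 6.66 against 324 and 288), which encode sarcomere proteins, and *Pln* was among the higher ones. Red cell markers stayed low, with a summed FPKM of 5.49 and 4.02 *in vivo* against 0.331 and 0.562 *in vitro* over 6 markers, of which 2 were tested and called higher. Lymphocyte markers summed to 2.64 and 3.09 *in vivo* against 3.09 and 2.51 *in vitro* over 12, with 1 (*Cd4*, which macrophages may also carry) of 2 tested lower. *Ms4a1* was at 0 in all 4 libraries, and *Cd3e*, *Cd3d*, *Cd3g* and *Cd8a* were at 0 in both *in vitro* libraries. Mural markers were split, with 2 higher and 3 lower of 8 and sums of 200.4 and 179.8 *in vivo* against 178 and 164 *in vitro*, and the lower count was 1 without either *in vivo* library or *in vitro* replicate 1. Schwann and neural markers summed to 22.6 and 20.9 *in vivo* against 14.7 and 15.03 *in vitro* over 8, and 3 of the 4 tested were higher, or 1 without *in vitro* replicate 2. Neutrophil and mast cell markers summed to 11.9 and 5.15 *in vivo* against 151 and 151 *in vitro* over 10, with 2 of 3 tested lower, and nearly all of the *in vitro* sum was *Mcpt4*. The mast cell marker *Fcer1a* was at 0 in both *in vitro* libraries and the neutrophil marker *S100a9* too. Both were chosen after their values were seen, as were the lymphocyte markers named at 0, and absence of the cells was not tested. The part that these cell types play in the gene classes below was not tested.

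**Figure D3:**
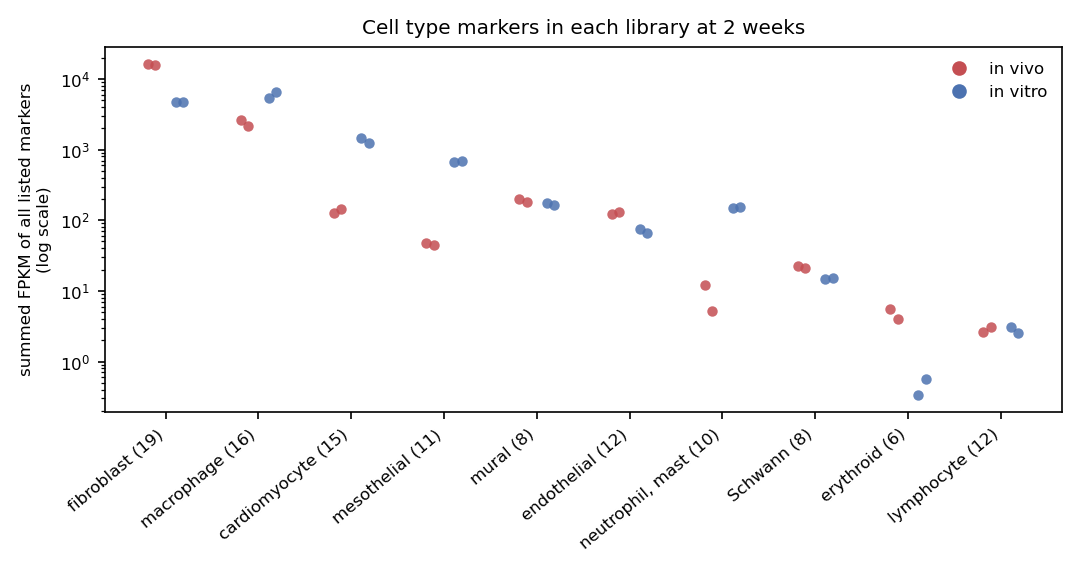
The summed FPKM of all listed markers of each cell type (number of markers in brackets) is shown on a logarithmic axis, with 1 point per library at 2 weeks. Fibroblast sums are the highest *in vivo*, macrophage sums are the highest *in vitro*, mesothelial and cardiomyocyte sums are lower *in vivo*, and endothelial and red cell sums are higher *in vivo*.

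Tendon, cartilage and bone genes had the highest median of all lists. The lists were chosen with earlier results of these data known, so this rank is a description and not a test. Of 25 members tested, 17 were higher *in vivo* and 0 lower, against 9.68% and 8.68% of all genes, with a median log2 fold change of 3.82 against -0.01. By role, 5 of 6 tendon genes, 10 of 16 cartilage genes and 2 of 3 bone genes were higher. *Scx* (chr15:76457452-76459458), the transcription factor of the tendon lineage, had an FPKM of 29.4 and 25.9 *in vivo* and 1.04 and 1.21 *in vitro* (4.50 ± 0.17), and *Sox9* (chr11:112782224-112787760), that of the cartilage lineage, had 40.9 and 36.7 against 9.06 and 7.45 (2.22 ± 0.11). Both factors were detected in culture, at lower levels. Matrix genes of these lineages were further apart. *Acan*, the cartilage proteoglycan aggrecan, had 14.8 and 11.6 *in vivo* and 0.271 and 0.226 *in vitro*, and *Prg4*, the joint lubricant lubricin, had 42.3 and 34.7 against 0.169 and 0.103. *Cilp*, a cartilage and scar matrix protein, had 512 and 483 *in vivo* and 6.53 and 5.19 *in vitro*. *Tnmd*, the tendon membrane protein tenomodulin, rested on 1 fragment in the *in vitro* libraries together, and its ratio was 357-fold with a 95% counting interval of 63.7 to 14166. At 1 week 15 of the list were higher, with a median of 1.84.

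Other matrix classes were also mostly higher *in vivo*. All 11 small leucine-rich proteoglycans tested were called higher, and over all 22 proteoglycans 17 were higher and 2 lower. *Aspn*, the leucine-rich protein asporin, had an FPKM of 510.0 and 466 *in vivo* and 19.2 and 20.5 *in vitro* (4.61), and *Vcan*, the large proteoglycan versican, 41.1 and 33.8 against 2.89 and 2.64 (3.71). *Gpc3*, a cell-surface glypican, was the exception named here, with 27.5 and 35.9 *in vivo* and 175 and 162 *in vitro* (-2.42). Of 29 elastic fibre and crosslinking genes, 18 were higher and 1 lower (median 1.84). The microfibril genes *Mfap4* (1415 and 1489 *in vivo*, 83.8 and 92.5 *in vitro*) and *Mfap5* (306 and 329.7 against 12.9 and 16.3) rose by 4.04 and 4.44 on the log2 scale. *Lox*, the lysyl oxidase that crosslinks collagen and elastin, had 406 and 351 *in vivo* and 27.1 and 28.3 *in vitro* (3.76). *Efemp1*, a fibulin, was the single lower member, with 7.31 and 8.93 *in vivo* and 96.9 and 105 *in vitro* (-3.62).

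Matrix proteases moved in both directions, with 14 (37.8%) of 37 proteases and inhibitors higher and 5 (13.5%) lower, against 9.68% and 8.68% of all genes. *Adamts16* (5.13 and 2.57 *in vivo*, 0.0317 and 0.0108 *in vitro*) and *Htra3* (289 and 303 against 28.6 and 24.5), both secreted proteases, rose by 4.95 and 3.48. *Mmp13*, a collagenase, had 0.762 and 0.373 *in vivo* and 5.68 and 9.19 *in vitro* (-3.52), and *Plau*, which encodes urokinase, 20.8 and 17.6 against 141 and 187 (-3.08). The lower count of the list was 3 without *in vivo* replicate 2. Of 28 integrin, laminin and nidogen genes, 8 (28.6%) were higher and 5 (17.9%) lower, against the same shares of all genes. With the scaling undone 7 were higher and 6 lower. *Itga11*, a collagen-binding integrin of fibroblasts, had 41.4 and 35.96 *in vivo* and 5.31 and 6.65 *in vitro* (2.68), whereas *Itga3*, a laminin-binding integrin, had 3.38 and 3.98 against 20.3 and 20.1 (-2.43).

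TGF-β is stored in the matrix bound to latent binding proteins and signals through SMAD factors once released. Of 33 genes of this pathway, 14 (42.4%) were higher and 1 (3.03%) lower *in vivo*, against 9.68% and 8.68% of all genes. The highest adjusted p of a called member was 0.00029 by limma. With the scaling undone 12 were higher and 4 lower. Of the latency genes 4 of 7 were higher and 1 lower. *Ltbp2*, a latent TGF-β binding protein of microfibrils, had an FPKM of 296 and 269 *in vivo* and 16.4 and 17 *in vitro* (4.07 ± 0.11), and *Ltbp1* had 18.1 and 16.2 against 2.17 and 1.94 (3.003 ± 0.10). *Nrros*, which holds latent TGF-β on myeloid cells, had 6.28 and 6.26 against 24.8 and 27.1 (-2.03 ± 0.12), lower beside the lower macrophage markers. Of the targets, 7 of 9 were higher. *Cthrc1*, a secreted protein of activated scar fibroblasts, had 349 and 332 *in vivo* and 6.76 and 6.28 *in vitro* (5.68 ± 0.12), *Postn*, the matricellular protein periostin, 1439 and 1282 against 112 and 118 (3.56), and *Pmepa1*, a feedback inhibitor, 145 and 158 against 31.7 and 32.8 (2.23). Not every target followed. *Acta2*, the smooth muscle actin of myofibroblasts, had 399 and 428 *in vivo* and 814 and 785 *in vitro* and was not called (-0.95 ± 0.08, adjusted p = 8.9e-05). None of the 4 receptors and co-receptors tested was called by limma, although all 4 were higher at an unadjusted p under 0.05. How many of all genes pass that threshold was not counted. Culture held a TGF-β receptor inhibitor, so exposure to the ligand and its inhibition cannot be told apart.

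Wnt proteins are bound and held back by secreted frizzled-related proteins. Of 38 Wnt pathway genes 15 (39.5%) were higher and 4 (10.5%) lower, against 9.68% and 8.68% of all genes. The lower share was near that of all genes. Of the 9 secreted inhibitors 6 were higher and 2 lower. *Sfrp2* (chr3:83766321-83774316) had an FPKM of 1213 and 1123 *in vivo* and 59.1 and 55.8 *in vitro* (4.34 ± 0.09), and *Sfrp1* had 303 and 253 against 15.2 and 15.2 (4.18 ± 0.10). *Sfrp5* moved the other way, with 0.560 and 0.810 *in vivo* and 11.9 and 11.8 *in vitro* (-3.95 ± 0.18). The inhibitor family was thus not uniform. *Wnt10b*, a ligand, had 4.92 and 3.43 *in vivo* and 0.0425 and 0.0649 *in vitro* (4.78). *Axin2*, the widely used readout of canonical signalling, had 1.72 and 1.89 *in vivo* and 1.73 and 1.16 *in vitro* and was not called (0.32 ± 0.23, adjusted p = 0.27), and *Nkd2*, a feedback inhibitor, had 27.7 and 30.1 against 1.75 and 1.68 (3.998). Of the 5 targets tested, 1 (*Nkd2*) was called.

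In the BMP pathway 7 (25.9%) of 27 genes were higher and 3 (11.1%) lower, against 9.68% and 8.68% of all genes. The median was 0.26 and became -0.08 with the scaling undone. The secreted antagonists were higher in 5 of 7 cases and lower in 0. *Chrd*, the antagonist chordin, had an FPKM of 6.99 and 6.76 *in vivo* and 0.705 and 0.917 *in vitro* (2.95), and the follistatin-like gene *Fstl1* 1241 and 1185 against 206 and 216 (2.52). *Bmp2*, a ligand, had 3.86 and 4.46 *in vivo* and 40.6 and 45.6 *in vitro* (-3.34). The direct targets *Id1* (0.27), *Id2* (-0.67) and *Id3* (-0.51) were not called, and *Id4* was lower (-2.29). The sign of *Id1* turned with the scaling undone.

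Among Notch receptors, ligands and targets 3 of 20 were higher and 2 lower, shares near those of all genes (9.68% and 8.68%). *Notch1* (1.08), *Jag2* (1.06) and *Hes1* (1.03) were just past the fold threshold, and each lost its call without *in vitro* replicate 2 and with the scaling undone. *Notch3* (-1.31) and *Hey1* (-1.18) were lower. In the insulin-like growth factor axis 3 (20%) of 15 were higher and 4 (26.7%) lower, against the 9.68% and 8.68% of all genes. Binding proteins *Igfbp2* (4.41 and 4.17 *in vivo*, 35.2 and 45.8 *in vitro*) and *Igfbp5* (48.7 and 46.8 against 318 and 288) were lower by 3.20 and 2.66 on the log2 scale, and *Stc2*, an inhibitor of the binding-protein protease, was higher by 3.08. *Irs1*, the insulin receptor substrate, had 3.36 and 3.12 *in vivo* and 0.482 and 0.499 *in vitro* (2.50). Of 35 other growth factors and receptors 7 (20%) were higher and 4 (11.4%) lower, again against 9.68% and 8.68% of all genes. The higher count was 4 when only the libraries at 2 weeks were fitted and 3 with a pseudocount of 1. Among them, *Fgf18* (1.91) and *Fgfr1* (1.49) were higher, and *Met*, the receptor of hepatocyte growth factor, was lower (0.450 and 0.283 *in vivo*, 2.39 and 2.36 *in vitro*, -2.43).

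**Figure D4:**
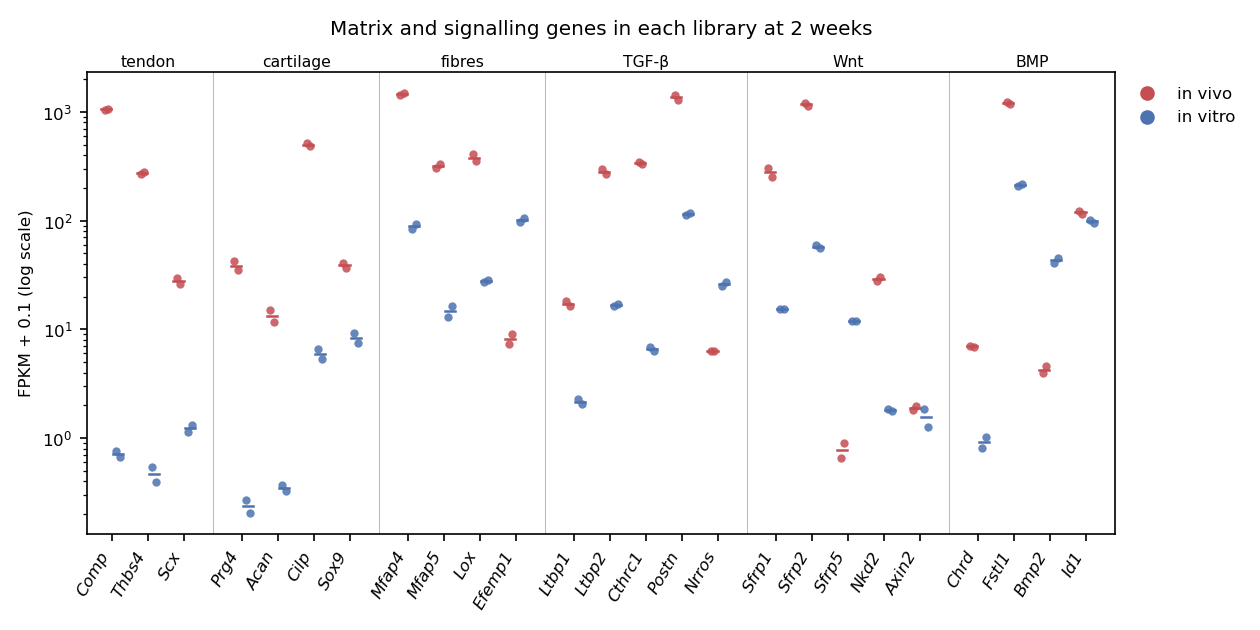
FPKM plus 0.1 on a logarithmic axis is shown for 25 genes of the matrix and of TGF-β, Wnt and BMP signalling, with 1 point per library at 2 weeks and the mean of each group as a line. The groups do not overlap for most genes shown, with *Efemp1*, *Nrros*, *Sfrp5* and *Bmp2* lower *in vivo* and *Axin2* close in both groups.

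Secreted and membrane proteins are folded in the endoplasmic reticulum, and its chaperone genes are induced through a promoter element, the endoplasmic reticulum stress element. Of 26 genes of this unfolded protein response, 7 (26.9%) were higher *in vivo* and 1 (3.85%) lower, against 9.68% and 8.68% of all genes. The median was 0.61, and 6 of 15 chaperones were higher. *Creld2* had an FPKM of 65.2 and 68.4 *in vivo* and 17.6 and 18.2 *in vitro* (1.90 ± 0.12), *Pdia6*, a disulfide isomerase, 161 and 169.9 against 54.7 and 58.04 (1.55 ± 0.09), and *Hspa5*, the chaperone BiP, 412 and 399 against 176 and 189 (1.16 ± 0.09). The groups did not overlap for any of these chaperones. *Creb3l2*, a membrane-bound transcription factor of the secretory pathway, had 52.3 and 52.8 *in vivo* and 14.04 and 14.8 *in vitro* (1.86). *Ddit3*, which encodes the stress-induced factor CHOP, moved the other way, with 12.4 and 17.1 *in vivo* and 31.7 and 31.6 *in vitro* (-1.11). The higher count was 4 with the scaling undone and 4 under quantile normalization, both of which lost the call of *Hspa5*, and *Ddit3* was not called without *in vivo* replicate 1 or without *in vitro* replicate 2. The chaperone promoters are shown because the stress element, CCAAT and CCACG with 9 bases between them in either strand, was present in 8 of the 22 members with a RefSeq promoter and in 0.174% of all 10333 tested genes with one (250 bases before to 50 after the start). This count covers members whether or not they were called, so it describes the list and not the difference between the groups. Only called members that hold the element are printed. The sequences below are the 150 bases before the RefSeq start on GRCm38.p6, read 5′ to 3′ on the gene's strand, with the element in capitals. They lie at chr15:88819496-88819645 (+ strand), chr12:17266439-17266588 (+ strand) and chr2:34771940-34772089 (+ strand).
Creld2: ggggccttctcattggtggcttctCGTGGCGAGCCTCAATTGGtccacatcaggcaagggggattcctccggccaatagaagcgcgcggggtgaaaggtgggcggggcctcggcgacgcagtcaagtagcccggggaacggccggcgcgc
Pdia6: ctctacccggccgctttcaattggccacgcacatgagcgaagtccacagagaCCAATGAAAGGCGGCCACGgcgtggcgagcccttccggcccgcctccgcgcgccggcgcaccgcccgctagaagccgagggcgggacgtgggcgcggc
Hspa5: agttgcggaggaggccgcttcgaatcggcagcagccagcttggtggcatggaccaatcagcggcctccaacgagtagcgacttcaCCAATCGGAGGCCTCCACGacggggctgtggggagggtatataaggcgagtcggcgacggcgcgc

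Genes of mitosis were lower in transplanted cells. Of 29 tested, 26 were called lower and 0 higher, with a median of -1.55 and a highest adjusted p of 0.00644 among the called. *Cenpa*, the centromere histone, had an FPKM of 1.19 and 0.927 *in vivo* and 11.2 and 9.99 *in vitro* (-3.21 ± 0.16), and *Ccnb1*, cyclin B1, 0.777 and 0.515 against 4.06 and 3.33 (-2.36 ± 0.21). *Ube2c*, a ubiquitin-conjugating enzyme of mitotic exit, had 1.40 and 1.57 against 6.31 and 6.51 (-2.04 ± 0.10), and *Cdk1*, the mitotic kinase, 1.38 and 1.21 against 4.37 and 5.08 (-1.79 ± 0.14). *Mki67*, the gene of the proliferation marker Ki-67, had 2.41 and 1.49 *in vivo* and 5.61 and 5.94 *in vitro* (-1.55). Levels were low in both groups, and with a pseudocount of 1 the lower count was 10. Genes of DNA replication moved less. Of 29 tested, 5 (17.2%) were lower and 1 (3.45%) higher, against 8.68% and 9.68% of all genes, with a median of -0.46. *Chaf1b*, a chromatin assembly factor, had 0.625 and 0.406 *in vivo* and 2.50 and 2.86 *in vitro* (-2.20), *E2f1*, the factor of S-phase entry, 3.99 and 3.93 against 7.84 and 8.88 (-1.06), and *Pold1*, a DNA polymerase subunit, 5.51 and 4.99 against 2.65 and 1.95 (1.17). The lower count of the replication list was 2 without *in vitro* replicate 2, when *E2f1* and *Pold1* lost their calls, 1 with a pseudocount of 1 and 8 with the scaling undone, and no test compared the mitosis and replication lists. The mitosis promoters are shown because the letters TTTGAA in either strand, which are those of the cell cycle genes homology region, were present in 17 of 24 mitosis genes, 2 of 23 replication genes and 14.2% of all tested genes with a promoter. These counts too describe the lists, called or not, and only called members that hold the letters are printed. The sequences again are the 150 bases before the start on GRCm38.p6, on the gene's strand, with these letters in capitals, at chr2:164769779-164769928 (+ strand), chr10:69352913-69353062 (- strand) and chr11:99024190-99024339 (- strand).
Ube2c: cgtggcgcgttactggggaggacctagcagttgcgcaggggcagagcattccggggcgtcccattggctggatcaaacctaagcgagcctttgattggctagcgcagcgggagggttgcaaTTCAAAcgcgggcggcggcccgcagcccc
Cdk1: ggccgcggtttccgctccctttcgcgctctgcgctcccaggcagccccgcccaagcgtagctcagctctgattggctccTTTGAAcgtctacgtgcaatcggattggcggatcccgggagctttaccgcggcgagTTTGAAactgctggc
Top2a: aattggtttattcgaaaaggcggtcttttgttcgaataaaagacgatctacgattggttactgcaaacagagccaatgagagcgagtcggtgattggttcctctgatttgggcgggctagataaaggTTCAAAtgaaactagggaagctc

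Of 6 cyclin-dependent kinase inhibitors 1 was lower *in vivo* and 0 higher, with a median of -0.27. Among D cyclins 2 of 3 were lower, and among p53 targets 5 of 12. Over these 21 genes, 8 were lower and 0 higher *in vivo* (median -0.72). With the scaling undone 12 were lower. *Cdkn2a*, the gene of the p16 and p19 inhibitors, had an FPKM of 5.75 and 7.49 *in vivo* and 29.8 and 31.6 *in vitro* (-2.21 ± 0.13). *Cdkn1a*, the p21 inhibitor, had 72.6 and 72.7 against 99.3 and 112 and was not called (-0.54 ± 0.08). The stress genes *Gadd45a* (-1.81), *Eda2r* (-1.72) and *Trp53inp1* (-1.73) were lower. Both the division genes and these p53-linked genes were thus higher in culture.

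Immediate early genes, which respond to growth factors and to handling of cells, split by family. Over the list 9 (33.3%) of 27 were higher and 4 (14.8%) lower, against 9.68% and 8.68% of all genes. With the scaling undone 7 were higher and 6 lower, and under quantile normalization 7 and 5. Of the AP-1 factors 4 of 9 were higher. *Jun* had an FPKM of 908 and 845 *in vivo* and 72.03 and 60.6 *in vitro* (3.73 ± 0.10), *Fosb* 582 and 522 against 56.004 and 49.2 (3.39 ± 0.15), and *Fos* 1593 and 1336 against 187 and 167 (3.04 ± 0.12). *Egr1*, a zinc finger factor, had 572 and 492 *in vivo* and 138 and 113 *in vitro* (2.09). *Nr4a3*, an orphan nuclear receptor, moved the other way, with 21.4 and 17.8 against 107 and 124 (-2.55). High AP-1 transcripts were therefore seen beside low *Nr4a3*. Of 16 heat shock genes 3 (18.75%) were higher and 1 (6.25%) lower, against 9.68% and 8.68% of all genes. *Hspa1a* had 194 and 227 *in vivo* and 8.11 and 8.85 *in vitro* (4.61), its neighbour *Hspa1b* 314 and 416 against 28.5 and 25.6 (3.74), and *Hsph1*, a co-chaperone, 15.8 and 17.2 against 5.63 and 4.76 (1.65). *Hspa1a* and *Hspa1b* are near-identical copies, so how fragments were shared between them is uncertain. *Cryab*, a small heat shock protein of muscle, was lower (84.6 and 96.2 *in vivo*, 222 and 232 *in vitro*, -1.33). The digestion of hearts before sorting differed between the groups, and its part in these genes cannot be told apart from that of the surroundings.

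**Figure D5:**
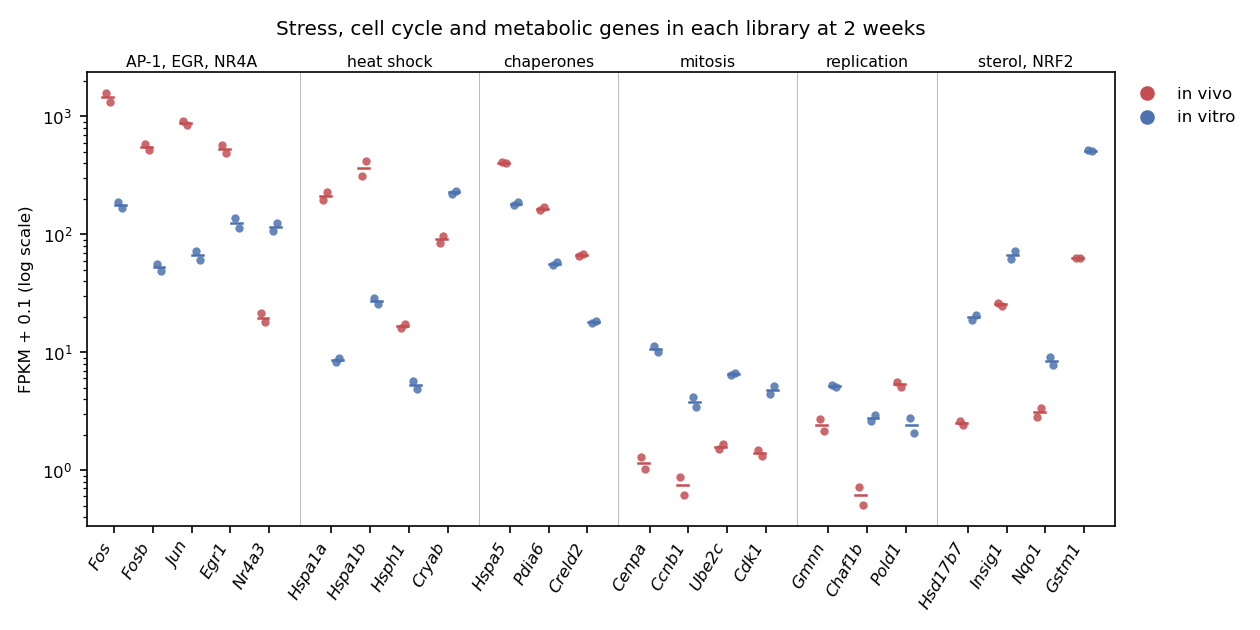
FPKM plus 0.1 on a logarithmic axis is shown for 23 stress, chaperone, cell cycle, sterol and NRF2 genes, with 1 point per library at 2 weeks and the mean of each group as a line. The AP-1, heat shock and chaperone genes shown are higher *in vivo* apart from *Nr4a3* and *Cryab*, and the mitosis, sterol and NRF2 genes are lower *in vivo*.

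The hosts received a glucocorticoid, and 4 (22.2%) of 18 genes of the glucocorticoid response were higher and 4 (22.2%) lower. The shares of all genes were 9.68% and 8.68%. *Fkbp5*, a widely used target of the receptor, had an FPKM of 7.21 and 8.95 *in vivo* and 1.09 and 1.23 *in vitro* (2.69 ± 0.17, adjusted p = 2.5e-05). *Tsc22d3*, the glucocorticoid-induced leucine zipper, had 23.1 and 27.8 against 10.7 and 10.6 (1.24 ± 0.09), and *Dusp1*, which is also an immediate early gene, 688 and 552 against 105 and 113 (2.50 ± 0.11). Other known targets did not follow, since *Per1* (-0.55) and *Klf9* (-0.41) were not called and *Pdk4* was lower (3.66 and 3.77 *in vivo*, 10.8 and 10.7 *in vitro*, -1.51). *Hsd11b1*, the enzyme that regenerates active glucocorticoid in cells, had 2.08 and 1.81 *in vivo* and 43.3 and 50.6 *in vitro* (-4.52 ± 0.20). The calls of *Tsc22d3* and *Sgk1* (1.09) were lost with the scaling undone, where the median of the list turned from 0.14 to -0.19. Of 21 clock genes, 3 were higher and 2 lower, shares near the 9.68% and 8.68% of all genes, and 4 were lower with the scaling undone. *Arntl*, the core activator, had 11.02 and 7.31 *in vivo* and 1.70 and 1.87 *in vitro* (2.27), and *Nr1d1*, which represses it, 83.8 and 94.2 against 15.01 and 16.4 (2.49). *Hlf* was lower (-1.68, not called without either *in vitro* library), and the output gene *Dbp* was not called (15.6 and 32.8 against 23.9 and 21.3, 0.00 ± 0.44). The time of day of each sort is not given in the sources used here.

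Of 23 genes of sterol synthesis, uptake and regulation 9 were lower *in vivo* and 0 higher (7 lower of the 19 synthesis genes), with a median of -0.96. *Hsd17b7*, an enzyme of the pathway, had an FPKM of 2.53 and 2.32 *in vivo* and 18.7 and 20.7 *in vitro* (-2.97 ± 0.15), and *Insig1*, a feedback protein, 25.8 and 24.8 against 61.1 and 72.4 (-1.39). At 1 week 17 of the list were lower. Genes of fatty acid synthesis and sterol efflux, by contrast, had 0 higher and 0 lower of 14 by limma and by voom (2 higher and 6 lower at an unadjusted p under 0.05). For that unadjusted threshold the share of all genes was not counted. The 6 adipogenic genes had 2 higher and 1 lower. The higher count of the adipogenic list was 0 with the scaling undone (then 2 lower) or a pseudocount of 1, and 1 without *in vivo* or *in vitro* replicate 2. *Pparg*, the adipogenic transcription factor, had 1.35 and 1.53 against 8.52 and 7.87 (-2.43 ± 0.12).

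Targets of NRF2, the factor that answers oxidants, were lower or uncalled, with 8 of 22 called lower and 0 higher (median -0.84), and no member had a positive log2 fold change. *Gstm1*, a glutathione transferase, had an FPKM of 62.97 and 62.7 *in vivo* and 516 and 507 *in vitro* (-3.02 ± 0.07), *Nqo1*, a quinone reductase, 2.74 and 3.27 against 9.03 and 7.72 (-1.45 ± 0.16), and *Gclc*, the first enzyme of glutathione synthesis, 6.99 and 6.85 against 25.3 and 28.8 (-1.95). *Hmox1*, heme oxygenase, was lower too (80.1 and 67.5 against 166 and 192, -1.28). It is also abundant in macrophages, whose markers were lower and whose part was not tested. Of 6 metallothionein and zinc transport genes 2 were higher and 2 lower, with 1 higher when any of the 4 libraries was left out, with the replicate number as a block, without a filter or with a pseudocount of 0.01. *Mt1*, a metallothionein, had 137 and 129 *in vivo* and 456 and 539 *in vitro* (-1.90), whereas the zinc importer *Slc39a14* had 13.4 and 12.1 against 3.41 and 3.05 (1.94).

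Respiratory chain genes mostly had small negative log2 fold changes. Of 77 nuclear-encoded subunits 4 (5.19%) were called lower and 0 higher, against 8.68% and 9.68% of all genes. A negative log2 fold change was seen for 75 of them, and the median was -0.53. With the scaling undone 25 were lower, as were 7 mitochondrially encoded, 6 glycolysis, 4 hypoxia, 9 lysosome, 17 sterol and 13 NRF2 genes of the lists described here. The called ones included the muscle isoforms *Cox7a1* (1.16 and 1.52 *in vivo*, 17.4 and 16.1 *in vitro*, -3.56) and *Cox6a2* (0.521 and 0.799 against 5.74 and 4.001, -2.71), which cardiomyocytes use. The lower count was 2 without *in vivo* replicate 1 and 2 without *in vitro* replicate 2, and *Cox6a2* lost its call without *in vivo* replicate 1 or either *in vitro* library. Of 13 mitochondrially encoded transcripts 2 were lower, *mt-Nd3* (-1.23) and *mt-Nd6* (-1.80), with a median of -0.81, and *mt-Nd3* lost its call without *in vivo* replicate 1 or *in vitro* replicate 2. In fatty acid oxidation 5 of 29 were lower and 1 higher. *Fabp3*, the heart fatty acid binding protein, had 5.598 and 3.85 *in vivo* and 58.2 and 56.5 *in vitro* (-3.60), and *Acaa2*, the last enzyme of β-oxidation, 33.2 and 36.9 against 172 and 158 (-2.23). Glycolysis gave 0 higher and 0 lower of 18 by limma and by voom (median -0.53, 3 higher and 12 lower at an unadjusted p under 0.05). The unadjusted counts have no share of all genes beside them. The aldolase gene *Aldoc*, among the largest falls named above, was not a member of this list. Of 17 hypoxia genes 2 were lower, *Car9* (0.615 and 0.197 *in vivo*, 8.97 and 9.61 *in vitro*, -4.35) and *Egln3* (5.96 and 5.48 against 27.6 and 27.3, -2.25), while *Vegfa* (-0.70 ± 0.12) was not called. The lower share of 11.8% was near the 8.68% of all genes.

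Amino acid response genes driven by ATF4 were split, with 5 (25%) of 20 higher and 4 (20%) lower, against 9.68% and 8.68% of all genes. With the scaling undone 7 were lower. *Pycr1*, which makes the proline that collagen needs, had an FPKM of 8.17 and 8.21 *in vivo* and 1.78 and 1.40 *in vitro* (2.30 ± 0.16), and the neutral amino acid carrier *Slc1a4* 21.8 and 24.4 against 4.94 and 5.47 (2.13 ± 0.10). *Chac1*, a glutathione-degrading stress gene, had 1.14 and 1.49 against 10.6 and 12.9 (-3.07 ± 0.20), and *Atf4* itself was not called (-0.06). Members of the list were thus called in both directions.

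Of 20 complement genes 7 (35%) were higher and 5 (25%) lower, against 9.68% and 8.68% of all genes. Beside *C4b*, the terminal component *C7* had an FPKM of 47.1 and 48.5 *in vivo* and 0.648 and 0.879 *in vitro* (5.81 ± 0.24), and the central component *C3* 501 and 447 against 96.95 and 91.1 (2.33 ± 0.11). *C5ar1*, a receptor of myeloid cells, had 21.6 and 19.7 against 65.2 and 83.95 (-1.84), lower beside the macrophage markers. The lower count was 3 without *in vivo* replicate 2 and 3 without *in vitro* replicate 2. Chemokines and other cytokines were 9 (29.0%) higher and 8 (25.8%) lower of 31, against the same shares of all genes. *Ccl2*, a monocyte attractant, had 82.5 and 56.9 *in vivo* and 663 and 853 *in vitro* (-3.45), and *Ccl3* 80.3 and 58.2 against 687 and 913 (-3.53). *Ccl8* had 52.01 and 42.2 *in vivo* and 2.12 and 1.73 *in vitro* (4.54), and *Cxcl9*, an interferon-γ target that held 2 fragments in culture, a ratio of 101-fold with a 95% counting interval of 27.6 to 844. Chemokines of the same family were thus changed in opposite directions. The lower count of the cytokine list was 5 without *in vivo* replicate 2 and 5 without *in vitro* replicate 2.

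Outside the sarcomere, electrical and calcium genes of heart muscle were 4 (15.4%) higher and 9 (34.6%) lower of 26, against 9.68% and 8.68% of all genes. The higher count was 2 with a pseudocount of 1. *Sln* had an FPKM of 0.0672 and 0.343 *in vivo* and 7.46 and 8.54 *in vitro* (-4.89 ± 0.48), whereas *Pln*, the related calcium pump inhibitor phospholamban, had 3.31 and 2.56 against 0.105 and 0.0800 (3.97 ± 0.33). The pair of pump inhibitors was therefore changed in opposite directions. *Kcnj5*, an atrial potassium channel, had 0.662 and 0.502 *in vivo* and 17.7 and 16.8 *in vitro* (-4.68). Among vasoactive peptide genes (4 higher, 5 lower of 16, and 2 higher with the scaling undone), *Ace*, which makes angiotensin II, had 289.9 and 262 *in vivo* and 7.66 and 7.76 *in vitro* (5.14 ± 0.07). *Ednrb*, an endothelin receptor, had 4.86 and 5.07 against 22.05 and 23.1 (-2.16), and *Npr3*, the natriuretic peptide clearance receptor, 0.396 and 0.492 against 3.03 and 3.25 (-2.58). *Nppa*, the atrial natriuretic peptide, was lower (1.02 and 2.83 against 7.69 and 6.29, -1.96), a call lost without either *in vitro* library. Smooth muscle and contractile genes had 1 lower (*Des*, -1.47) and 0 higher of 15. The lower share of 6.67% was near the 8.68% of all genes, and 7 were lower once the scaling was undone. Of 19 skeletal muscle genes 4 passed the filter on low values, and *Pygm* (-1.11) was called, except without *in vivo* replicate 2 or either *in vitro* library.

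Transcription factors of mesenchyme were mostly higher or uncalled, with 10 of 27 higher and 1 lower. Beside *Meox1*, *Meox2* had an FPKM of 6.68 and 6.68 *in vivo* and 0.643 and 0.561 *in vitro* (3.27 ± 0.16) and *Prrx2* 11.8 and 14.7 against 3.47 and 2.17 (2.22 ± 0.22). *Foxf1* was the lower member, with 1.76 and 1.80 against 7.90 and 8.80 (-2.17 ± 0.13). The protein synthesis and degradation machinery held no call. None of 76 ribosomal protein genes and none of 31 proteasome genes was called by limma or voom at 2 weeks, with medians of 0.10 and -0.27, and the ribosomal median became -0.23 with the scaling undone. At an unadjusted p under 0.05, 22 ribosomal protein genes were higher and 4 lower, and 24 proteasome genes were lower and 0 higher. The share of all genes at this unadjusted threshold was not counted, so these counts have no background. Of 31 lysosome genes 3 (9.7%), *Ctsb* (-1.19), *Lipa* (-1.04) and *Atp6v0d1* (-1.08), were lower and 0 higher. The lower share was near the 8.68% of all genes, and without *in vitro* replicate 2 *Lipa* and *Atp6v0d1* were not called. Under quantile normalization 6 lysosome, 7 nuclear respiratory chain, 4 mitochondrially encoded, 3 contractile and 2 glycolysis genes were lower.

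Whether the difference at 2 weeks differed from that at 1 week was tested with the interaction contrast of the same limma model. It was called for 293 genes (1.99% of those tested), with a higher value at 2 weeks for 101 (0.687%) and a lower value for 192 (1.31%). The log2 fold change moved up for *C4b* (7.09 at 1 week, 8.66 at 2 weeks), *Pi16* (6.78 and 8.39) and *Cthrc1* (4.28 and 5.68). The value moved down for *Ccl2* (-0.81 at 1 week, -3.45 at 2 weeks), *Plau* (-0.79 and -3.08) and *Mcpt4* (-3.33 and -6.89). The count rests on few libraries, since it was 2 with the replicate number as a block and 13 to 134 when each library at 2 weeks was left out in turn. The comparisons at the weeks share no libraries, but they share 1 estimate of the spread, taken over all 8.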

How the data were processed

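Per the labels, RNA of eGFP+ sorted cells was sequenced, and the authors deposited 1 table of FPKM for 8 libraries. The submitters' processing notes name CASAVA, HISAT2 2.0.5 and mm10. In these deposited FPKM, 100% of values were whole multiples of the value of 1 fragment (tolerance 0.01 of a step), from which fragments and the scaling between libraries were recovered. Delivered and endogenous transcripts, and near-identical paralogs, share fragments in these values. Where a symbol had several rows, the protein-coding row with the highest mean was used.

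Genes with FPKM of at least 0.5 in at least 2 of the 4 libraries at 2 weeks were tested on log2(FPKM + 0.1) by limma 3.58.1 (R 4.3.3) with an intensity trend, over all 8 libraries in 4 groups, with Benjamini-Hochberg adjustment. The count test on the recovered fragments, limma voom, called 1510 genes higher and 1345 lower. Such fold changes understate the change of low genes. Intervals and floors cover counting error only, since PCR copies are not independent molecules. The deposited table held 0 columns of values without a sample.

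Members and gene lists were chosen with earlier results of these data known. Named genes were the 15 largest rises and falls (protein-coding, no overlap of libraries, mean FPKM of 5 or more where higher), up to 4 called members per list with the largest change (mean FPKM of 2 or more) and 1 in the less frequent direction, and anchor genes fixed for each list. Some genes that this rule names are not reported here. Markers named as at 0 were chosen after their values were seen. Promoters from RefSeq (GRCm38.p6) were searched for 15 motifs, and the 2 described were chosen after that search. Alternatives changed the pseudocount, filter, scaling, libraries, block, trend, test, gene set and threshold. The fit was tested on simulated data with known changes.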

Additional observations from a re-analysis of the deposited data

Results flagged for a closer look

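For the named genes below, the main fit called the limma interaction contrast between 2 weeks and 1 week (adjusted p below 0.01 and a log2 difference larger than 1 in size). Over all genes this call was given to 293 in the main fit, 2 with the replicate number as a block and 13 to 134 without 1 library. Which of the named genes kept the call was not examined. Values are the log2 fold change at 2 weeks minus that at 1 week. It was positive for the matrix and scar genes and the complement, amino acid and other genes *C4b* (1.56), *Comp* (1.34), *Cthrc1* (1.41), *Itga11* (1.28), *Lox* (1.021), *Pi16* (1.61), *Slc1a4* (1.25) and *Stc2* (1.67). For *Retnla* (6.17) and *Uts2r* (3.73), the *in vitro* libraries at 2 weeks were at 0, so that the value depends on the pseudocount.

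The difference was negative, and the gene was lower *in vivo* at 2 weeks, for *Abcc9* (-2.99), *Actc1* (-2.41), *Bmp2* (-2.30), *Ccl2* (-2.64), *Ccl3* (-2.72), *Egln3* (-1.80), *Fabp3* (-1.86), *Gpc3* (-1.35), *Igfbp5* (-1.31), *Kcnj5* (-2.28), *Krt18* (-1.89), *Mcpt4* (-3.56), *Nr4a3* (-1.88), *Plau* (-2.29), *Pparg* (-1.71), *Tnni3* (-2.76) and *Ube2c* (-1.09). These include chemokines, proteases, muscle and mesothelial genes and a mitotic enzyme. It was also negative for *Aspn* (-1.30), *Fabp4* (-1.55), *Mfap4* (-1.08) and *Rgs5* (-2.71), which were higher *in vivo* at 2 weeks and had a larger log2 fold change at 1 week. Each group of each week holds 2 libraries.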

How the results depend on the processing

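With 2 libraries per group, each value rests on few samples, and at this depth low genes carry a large counting error. The 1424 higher genes at 2 weeks ranged from 1031 to 1669 and the 1277 lower genes from 879 to 1509 under all alternatives but 1. With the scaling between libraries undone, 2102 were lower and 1048 higher, with log2 fold changes shifted down, by less for genes near the pseudocount. Leaving out each library in turn gave 1171 to 1290 higher and 905 to 1269 lower. The 293 genes whose difference itself differed between the weeks were less stable, with 110 without a filter on low values, 49 without the intensity trend, 491 by voom on the recovered fragments, 463 among protein-coding genes, 701 at an adjusted p under 0.05, and 13 to 134 without 1 library. The cause of these shifts was not tested, apart from the looser threshold. In a fit that blocked on replicate number, 1264 genes were higher, 1091 lower, and 2 differed between the weeks. Same-numbered libraries did not deviate together (correlations of -0.03 at 2 weeks and -0.05 at 1 week), so the numbers were not used as pairs.

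Of the 194 named genes called at 2 weeks, 165 kept their call under every alternative and 0 changed direction. The others lost it most often without *in vitro* replicate 2 (21 genes), without *in vivo* replicate 1 (12), with a pseudocount of 1 (11) or without *in vivo* replicate 2 (11). *Abcc9* and *Jag2* lost their call under 9 alternatives each, *Mt3* and *Ndufa12* under 8, and *Etfb* and *Nppa* under 6. List medians near 0 turned sign with the scaling undone, as for the insulin-like growth factor (0.10 to -0.23) and growth factor (0.13 to -0.20) lists. Macrophage, cytokine and complement lists lost lower calls without *in vivo* or *in vitro* replicate 2.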

Other observations

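Several of the largest differences fell on genes in none of the pathway lists. *Lrg1*, which encodes a secreted leucine-rich glycoprotein, had an FPKM of 16.5 and 17.9 *in vivo* against 0.0513 and 0.0522 *in vitro*, where it rested on 2 fragments, and the ratio was 332-fold with a 95% counting interval of 91.5 to 2751. *Kcnj15*, an inward rectifier potassium channel, had 24.1 and 23.4 against 0.0916 and 0.116 (6.87 ± 0.15 on the log2 scale), and *Tmem100*, a membrane protein known from endothelium, had 20.005 and 25.1 against 0.205 and 0.0832 (6.57 ± 0.26), beside higher endothelial markers whose part was not tested. Several transcripts had no fragment in either *in vitro* library. *Uts2r*, the urotensin receptor, had 6.71 and 7.07 *in vivo* and was at least 107-fold higher, and *Retnla*, a secreted protein of alternatively activated macrophages, had 9.17 and 13.5 and was at least 61.8-fold higher, each against a floor of 3 fragments over the *in vitro* pair. *Ccl21a*, a ligand of the chemokine receptor CCR7, had 7.93 and 14.4 and was at least 40.9-fold higher, and since it lies on an unplaced scaffold and has near-identical copies, its value is uncertain. *Retnla* was therefore detected in the sorted *in vivo* samples although 9 of 16 macrophage markers were lower there. Which cells carried it was not tested.

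Among the falls, several genes known from other tissues were detected in culture. *Amhr2*, the receptor of anti-Müllerian hormone, had an FPKM of 0.0884 and 0 *in vivo* against 6.27 and 6.05 *in vitro*, *Prl7b1*, a placental member of the prolactin family, 0 and 0.0979 against 6.96 and 5.49, and *Mlana*, a melanocyte antigen, 0.284 and 0 against 8.24 and 7.79. Both *in vitro* libraries lay above both *in vivo* libraries in each case. *Mcpt2*, a second mast cell chymase, had 0.0835 and 0 against 10.6 and 11.8, so 2 chymase genes were detected in culture while the mast cell receptor gene *Fcer1a* was at 0 there. Whether mast cells were present was not tested. *Cgn*, which encodes the tight junction protein cingulin, had 0.0736 and 0.105 against 5.46 and 5.39 (-4.87 ± 0.24), lower beside the mesothelial markers. The carbonic anhydrase *Car14* had 0.209 and 0.178 against 8.42 and 6.28 (-4.65 ± 0.35), in the same direction as *Car4* and *Car9*, and *Aldoc* had 3.07 and 1.11 against 68.4 and 68.8 (-5.13 ± 0.38).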
